A study of Mus musculus with 6 samples.

Results

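The genes described here are 32 genes of the p53 pathway and its DNA damage targets, chosen by symbol. A probe set that the platform annotation ties to the gene alone was found for 31 of the 32, out of 18193 genes measured in this way. Trp53, the gene for p53 itself, had no such probe set and was not analysed here. The 31 genes were covered by 63 probe sets, and each of the 19 genes with several was represented by its brightest. The arrays carried RNA from 3 related lines of mouse hepatocellular carcinoma cells, with 2 arrays per line: BL185, the parent line, and M1 and I1, a pair of subpopulations of BL185 selected for migration. All were grown in DMEM with serum, and the labels name no DNA-damaging treatment, strain, genotype or p53 status. M1 and I1 are each called a subclone, and an unselected subclone was not measured, so selection and subcloning cannot be told apart. Whether the paired arrays represent independent cultures is not given, and the p-values therefore measure only the spread between arrays, which may be technical. The cell type label was checked against its markers. The keratin genes Krt8 and Krt18 lay between 14.78 and 15.23 in log2 signal and the hepatocyte transcription factor Hnf4a between 11.94 and 13.34. Albumin (Alb) lay between 7.53 and 8.43, close to the medians of the arrays (7.87 to 8.11), a level not distinguishable from background. The 11 hepatocyte markers measured had medians of 8.42 to 9.89 on the arrays. The 5 bile duct markers measured had medians of 9.13 to 11.19 and highest values of 14.59 to 15.08. These lists thus do not tell hepatocyte from bile duct cells.

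p53 is a transcription factor that is held low by the ubiquitin ligase Mdm2 and its partner Mdm4, and that is stabilised when DNA damage kinases act on it or when the Arf product of Cdkn2a binds Mdm2. Its targets arrest the cell cycle (Cdkn1a, Gadd45a, Btg2), promote apoptosis (Fas, Apaf1, Eda2r), repair DNA (Xpc, Ddb2, Polk) and feed back on p53 (Mdm2, Ppm1d, Ccng1). Several of the genes also respond to signals other than p53: Gadd45a to amino acid and endoplasmic reticulum stress, and Klf4, Btg2 and the Plk genes to growth factors.

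The promoters of 3 genes are shown because they hold a match to the p53 binding consensus and belong to genes whose values differed in pattern: Gadd45a was low in both selected lines, Cdkn1a was low in M1, and Ccng1 was low in neither by its brightest probe set. The consensus is a 10-base unit of 3 purines, C, 2 bases that are A or T, G and 3 pyrimidines. This unit reads the same on both strands, and a full site was taken as 2 adjoining units with at most 3 mismatches and every core C and G present. RefSeq windows on GRCm38.p6, from 250 bases before to 50 bases after a gene's start, were held for 26 of the 32 genes. At least 1 exact unit was found in 12 of these 26 genes and in 9.55% of the 27025 genes with a window, and at least 1 full site in 5 of 26 and in 1.63%. A match is a description of letters, not evidence of binding. The windows are written 5′ to 3′ in the direction of the gene, with capitals marking the full site or, where there is none, the exact unit. In Gadd45a the capitals mark a single unit that begins 40 bases before the start. In Cdkn1a they mark a full site with 1 mismatch that begins 51 bases before the start. This is the upstream of the 2 Cdkn1a windows, the other having no match, and it holds another exact unit farther upstream, left in lower case. In Ccng1 the capitals mark a full site with 1 mismatch that begins 195 bases before the start.
Gadd45a, chr6:67037358-67037657, minus strand: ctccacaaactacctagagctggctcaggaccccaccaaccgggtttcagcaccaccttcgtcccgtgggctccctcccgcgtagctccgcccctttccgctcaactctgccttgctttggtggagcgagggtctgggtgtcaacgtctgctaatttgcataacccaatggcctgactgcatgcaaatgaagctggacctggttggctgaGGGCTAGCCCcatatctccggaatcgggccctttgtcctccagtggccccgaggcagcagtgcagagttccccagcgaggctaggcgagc
Cdkn1a, chr17:29090729-29091028, plus strand: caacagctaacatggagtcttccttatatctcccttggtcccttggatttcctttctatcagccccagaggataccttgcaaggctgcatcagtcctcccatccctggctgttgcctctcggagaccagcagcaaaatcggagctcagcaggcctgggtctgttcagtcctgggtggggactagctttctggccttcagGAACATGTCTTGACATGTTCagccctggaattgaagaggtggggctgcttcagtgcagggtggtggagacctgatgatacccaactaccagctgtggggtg
Ccng1, chr11:40755237-40755536, minus strand: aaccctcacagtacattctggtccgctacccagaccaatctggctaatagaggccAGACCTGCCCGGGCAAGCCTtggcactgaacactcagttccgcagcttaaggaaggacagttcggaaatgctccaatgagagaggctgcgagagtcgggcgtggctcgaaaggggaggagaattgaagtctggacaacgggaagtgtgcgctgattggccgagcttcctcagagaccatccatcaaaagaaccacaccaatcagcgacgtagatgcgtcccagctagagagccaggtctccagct

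The replicate arrays were not equally alike. Over the 31 genes, the standard deviation between replicates was 0.89 log2 units for M1 but 0.16 for BL185 and 0.14 for I1, and over all genes it was 0.65, 0.10 and 0.16. M1 replicate 1 had a narrower range of signals than the other arrays, with an SD over probe sets of 1.62 against 1.83 to 1.97. It read below M1 replicate 2 for 27 of the 31 genes, as for 84.2% of the 4533 genes with a mean log2 signal between 9.22 and 10.98, the interquartile range of the p53 genes. Signal for 18S ribosomal RNA (3′ probe set) was 10.11 and 10.14 on the parent arrays, 12.50 and 10.68 for M1 and 11.27 and 11.51 for I1. The 3′ minus 5′ signal of Actb, which rises as RNA degrades, was 1.08 and 0.88 on the parent arrays, against 1.43 and 1.24 for M1 and 1.47 and 1.43 for I1. Both measures were higher in the selected lines, and their part in the differences below was not tested. For 9 of the 31 genes the M1 change had the other sign without M1 replicate 1, and the values without it are given below in brackets or beside the change. Markers of other cell types also differed between the lines. In M1, 2 of 5 bile duct markers (Prom1 and Sox9), 2 of 8 leukocyte markers (Cd68 and Cd53) and 1 of 11 hepatocyte markers (Fgb) passed limma's test as lower, and in I1 Prom1 and Cd68 did. The leukocyte list had 4 to 6 of its 8 genes above the array median, with Cd14 highest on each array (10.62 to 12.15), although its defining marker Ptprc lay between 6.25 and 7.17. Of 10 stellate cell and fibroblast and 8 endothelial markers, 0 passed in either line. The part of these differences in the results below was not tested.

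In both selected lines the signals of a small set of these genes were well below those of the parent. Gadd45a lay 12.4-fold lower in I1. In M1 it lay 20.8-fold lower with both arrays and 10.6-fold lower without replicate 1, which read it below that array's median. Next in I1 came Trp53inp1, Klf4, Zmat3 and Plk3, lower by 4.58-fold, 3.19-fold, 2.76-fold and 2.43-fold. In M1 the same genes lay 7.50-fold, 4.32-fold, 3.37-fold and 3.11-fold lower (3.93-fold, 2.62-fold, 1.78-fold and 2.56-fold without replicate 1). Phlda3, an inhibitor of AKT signalling, was 2.44-fold higher in I1 and 2.34-fold higher in M1. Cdkn1a, which encodes the cell cycle inhibitor p21, was 2.76-fold lower in M1 and 1.08-fold lower in I1. These are differences between means. None of the 31 genes passed an adjusted p of 0.05 in limma's test over all genes, in which the spread was pooled over the 3 lines. Of all genes, 0.879% passed for M1 against BL185 (0.605% lower and 0.275% higher), 0.511% for I1 against BL185 (0.319% lower and 0.192% higher) and 0% for I1 against M1.

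At an unadjusted p under 0.05, 11 of the 31 genes were lower and 1 was higher in M1, where 11.5% and 3.92% of all genes were (15.4% in either direction), and 20.2% and 5.43% of the 4533 genes of like signal. In I1, 8 were lower and 1 was higher, against 7.47% and 4.18% of all genes and 11.8% and 6.38% of those of like signal. Between I1 and M1, 3 were higher in I1 and 0 lower, against 1.83% and 0.418% of all genes and 3.22% and 0.618% of those of like signal. Lower by at least 1 with no overlap of arrays were 11 genes in M1 and 9 in I1, beside 10.4% and 5.82% of all genes and 22.6% and 11.9% of those of like signal, and 1 was higher in each, beside 2.38% and 2.45% of all genes. With M1 replicate 1 left out, which removes most of the pooled spread, 12 genes passed an adjusted p of 0.05 as lower and 4 as higher in M1, beside 12.3% and 11.7% of all genes and 21.5% and 18.4% of those of like signal. Under the same omission 16 passed as lower and 6 as higher in I1, beside 24.1% and 22.5% of all genes and 43.7% and 19.8% of those of like signal. Between I1 and M1, 4 then passed as higher and 7 as lower, beside 7.2% and 13.4%. Without M1 replicate 2 instead, 30 of the 31 passed in M1, beside 12879 of all 18193 genes, and with any 1 array of BL185 or I1 left out 0 passed. The counts thus turned on which M1 arrays were used, and a single M1 array was taken to have the spread of the remaining lines. For I1 against M1 without M1 replicate 1, the shares given are of all genes. They show no excess over genes of like signal. Under that omission the median I1 minus M1 change was −0.22 for the 31 genes, −0.21 for genes of like signal and −0.03 for all genes.

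**Figure D1:**
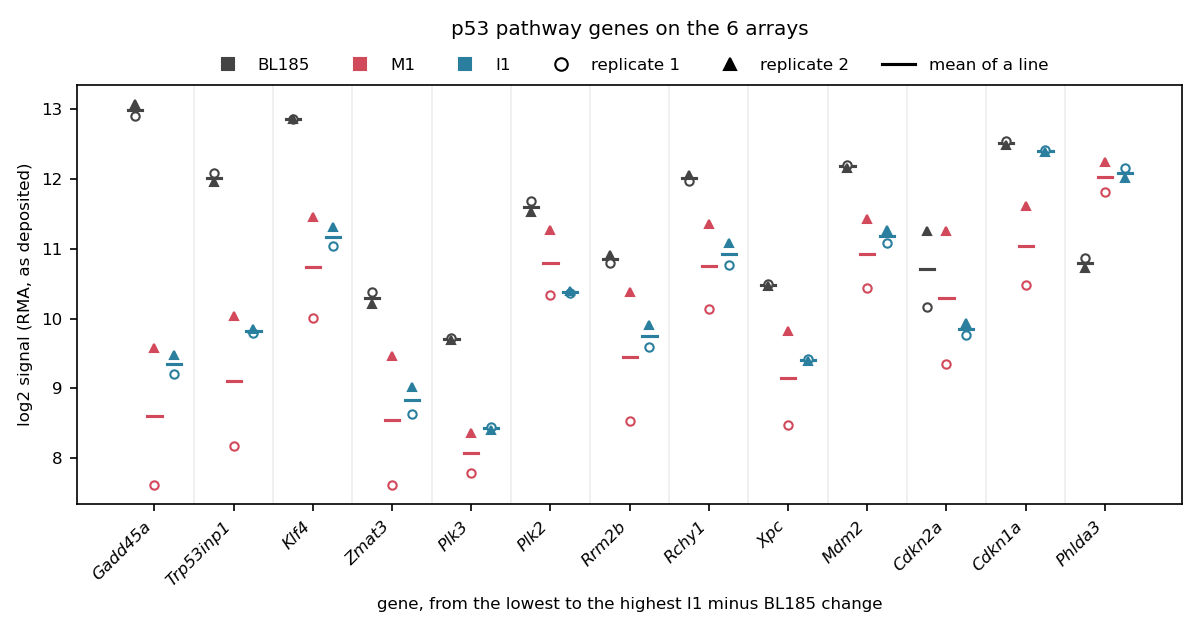
Log2 signal (vertical axis) of the 13 genes described array by array, ordered along the horizontal axis by I1 minus BL185 change. Open circles are replicate 1, filled triangles replicate 2 and bars the mean of a line; 11 of the genes lie lower on every array of both selected lines than on either parent array, Phlda3 lies higher, M1 overlaps the parent for Cdkn2a, and M1 replicate 1 lies below M1 replicate 2 in all 13.

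Among the regulators of p53, the negative regulators Mdm2 and Rchy1 had lower means in both selected lines. Mdm2 read 12.20 and 12.15 in the parent, 10.43 and 11.42 in M1 and 11.08 and 11.27 in I1. Neither selected line overlapped the parent, and the changes were −1.25 ± 0.35 (SE) in M1 (−0.75 without replicate 1) and −1.0 ± 0.35 in I1, with limma adjusted p-values of 0.212 and 0.363. A second Mdm2 probe set gave −1.16 and −0.90, and the dimmest, with a mean of 7.03 over the arrays, gave 0.33 and 0.10. Rchy1, a ubiquitin ligase that also acts on p53, read 11.97 and 12.05 in the parent, 10.14 and 11.35 in M1 and 10.76 and 11.08 in I1. Its changes were −1.26 ± 0.42 in M1 (−0.65 without replicate 1) and −1.09 ± 0.42 in I1, with limma adjusted p-values of 0.268 and 0.416.

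Cdkn2a encodes p16 and Arf, which one probe set does not separate. It read 10.16 and 11.25 in the parent, 9.34 and 11.25 in M1 and 9.76 and 9.93 in I1. The replicates of BL185 differed by more than the lines did, M1 overlapped the parent, and the change in M1 turned from −0.41 ± 0.70 to 0.54 when replicate 1 was left out. The I1 change was −0.86 ± 0.70 (limma adjusted p = 0.694). Ppm1d, the phosphatase that reverses damage signalling to p53, differed by −0.30 ± 0.39 in M1, which turned to 0.28 without replicate 1. In I1 it differed by −0.69 ± 0.39. The other Ppm1d probe set gave 0.24 in M1 and −0.003 in I1. For Mdm4 the probe sets disagreed. The brightest gave 0.87 ± 0.59 in M1 (−0.028 without replicate 1) and 0.71 ± 0.59 in I1 and read 10.47 on M1 replicate 1 against 8.67 on replicate 2, whereas the next gave −1.04 and −1.09, so no direction can be given for this gene.

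**Figure D2:**
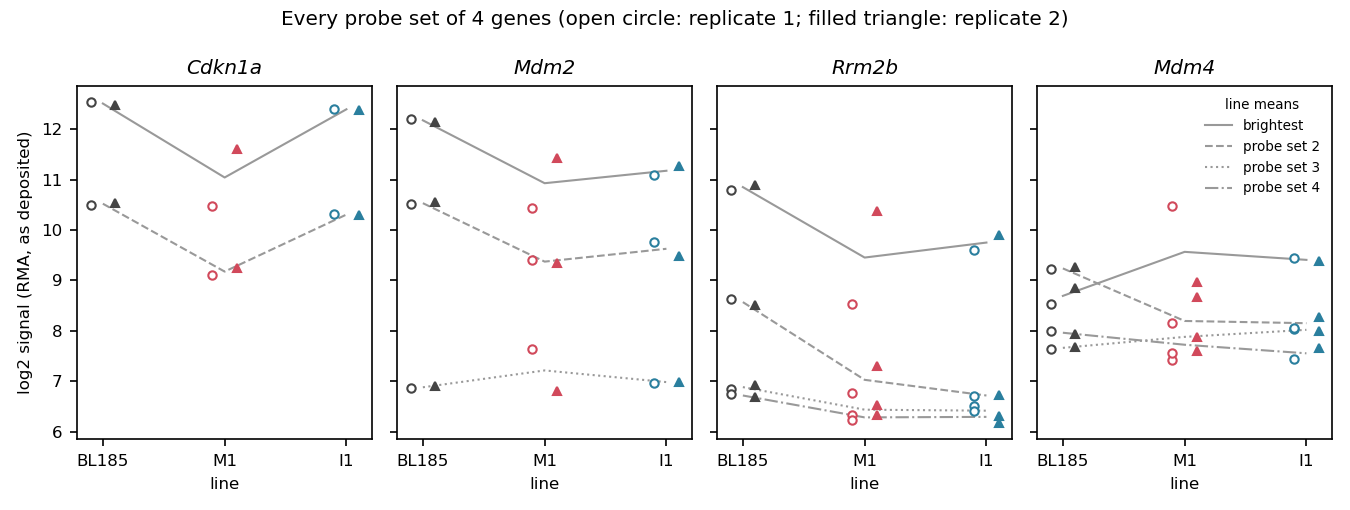
Log2 signal (vertical axis) of every probe set of Cdkn1a, Mdm2, Rrm2b and Mdm4 in the 3 lines, with grey lines joining line means. Both Cdkn1a probe sets are lower in M1 and by much less in I1. The 2 brighter Mdm2 probe sets and the 4 Rrm2b probe sets are lower in both selected lines, and those of Mdm4 go in different directions.

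Among the arrest and growth control genes, Gadd45a differed most. This gene, whose product slows the cell cycle at the G2 checkpoint and binds Cdkn1a protein, read 12.89 and 13.07 in the parent, 7.63 and 9.58 in M1 and 9.21 and 9.48 in I1. It stood at the 95.3 and 96.3 percentile of all genes on the parent arrays, at 19.9 and 58.6 on the M1 arrays and at 56.0 and 59.2 on the I1 arrays. The changes were −4.38 ± 0.63 in M1 (−3.40 without replicate 1) and −3.64 ± 0.63 in I1, with limma adjusted p-values of 0.0609 and 0.109. The low value on M1 replicate 1 lay below that array's median, so the size of the M1 change is not exact. Its relatives did not share the pattern: Gadd45b differed by 0.07 ± 0.30 in M1 (0.47 without replicate 1) and 0.15 ± 0.30 in I1, and Gadd45g by −0.22 ± 0.42 in M1, which turned to 0.41, and 0.89 ± 0.42 in I1. A second Gadd45b probe set gave 0.13 and 1.09.

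Cdkn1a read 12.54 and 12.48 in the parent, 10.48 and 11.60 in M1 and 12.41 and 12.38 in I1. The M1 arrays were the low ones, and the I1 arrays lay just under those of the parent. The change was −1.47 ± 0.38 in M1 (−0.91 without replicate 1; limma adjusted p = 0.186) and −0.11 ± 0.38 in I1 (0.911). The difference between the selected lines, I1 minus M1, was 1.35 ± 0.38, with an unadjusted limma p of 0.015 and an adjusted p of 1.00. The second Cdkn1a probe set, with M1 replicates that differed less (9.11 and 9.24, against 10.50 and 10.54 in BL185 and 10.32 and 10.29 in I1), gave −1.35 in M1 and −0.22 in I1. When every probe set was tested, this was the 1 of the 63 that passed in M1 (limma adjusted p = 0.0382), where 0.585% of all 45101 probe sets passed, and its I1 minus M1 difference of 1.13 did not pass (0.454).

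Klf4, a transcription factor that activates Cdkn1a, read 12.85 on both BL185 arrays, 10.01 and 11.46 in M1 and 11.03 and 11.31 in I1. Its changes were −2.11 ± 0.48 in M1 (−1.39 without replicate 1) and −1.68 ± 0.48 in I1, with limma adjusted p-values of 0.146 and 0.261, and the other Klf4 probe set gave −1.68 and −1.24. Plk3, a stress-responsive polo-like kinase, read 9.73 and 9.70 in the parent, 7.79 and 8.36 in M1 and 8.45 and 8.41 in I1. Its replicate SD was 0.40 in M1, against 0.023 in BL185 and 0.029 in I1, and M1 replicate 1 lay below that array's median. Its changes of −1.64 ± 0.24 in M1 (−1.35 without replicate 1) and −1.28 ± 0.24 in I1 had limma adjusted p-values of 0.0609 and 0.122. Plk2, a related kinase of the centriole cycle, read 11.68 and 11.52 in the parent, 10.34 and 11.26 in M1 and 10.36 and 10.40 in I1, and a dimmer Plk2 probe set went the other way (0.41 in M1 and 0.38 in I1). The Plk2 changes were −0.80 ± 0.33 in M1 (−0.34 without replicate 1) and −1.22 ± 0.33 in I1.

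None of the other genes of this group passed limma's adjusted p of 0.05 over the 6 arrays in either line, nor did any of the 31. Ccng1, a cyclin that recruits phosphatase 2A to Mdm2 and whose promoter is shown above, differed by 0.07 ± 0.34 in M1 (0.56 without replicate 1) and 0.47 ± 0.34 in I1, while its second probe set gave −0.45 and −0.48. Btg2, an antiproliferative cofactor of mRNA deadenylation, differed by −0.70 ± 0.24 in M1 (−0.41 without replicate 1), with both M1 arrays below the parent's. Its unadjusted limma p in M1 was 0.0323, and its I1 change was 0.07 ± 0.24. The other Btg2 probe set, of similar brightness (means of 9.87 and 9.96), gave −0.14 in M1 and 0.31 in I1. On it M1 (10.05 and 9.29) overlapped the parent (10.10 and 9.52). Sertad1, a CDK4-binding protein, differed by −0.08 ± 0.28 in M1, which turned to 0.28 without replicate 1, and by 0.56 ± 0.28 in I1. For Btg2 (brightest probe set only) and Gadd45g the I1 arrays lay above both M1 arrays, with unadjusted limma p-values of 0.0233 and 0.0453 and adjusted p-values of 1.00. In all, 5 of the 31 genes were higher in I1 than in M1 without overlap and 1 was lower. The shares were 8.13% and 7.96% of all genes and 10.9% and 4.15% of those of like signal. Of the 31, 2 were higher by at least 1, beside 1.25% of all genes and 2.63% of those of like signal. Rap2b, a Ras-like GTPase, differed by −0.30 ± 0.38 in M1, which turned to 0.26, and by 0.11 ± 0.38 in I1. Of the 11 genes of this group, 6 were lower in M1 with no overlap of arrays and 0 were higher, and in I1 5 were lower and 5 higher. All genes gave 25.7% lower and 26.2% higher in M1 by this measure, and 33.5% and 42.6% in I1, and genes of like signal gave 43.8% and 14.4% in M1 and 54.4% and 28.9% in I1.

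**Figure D3:**
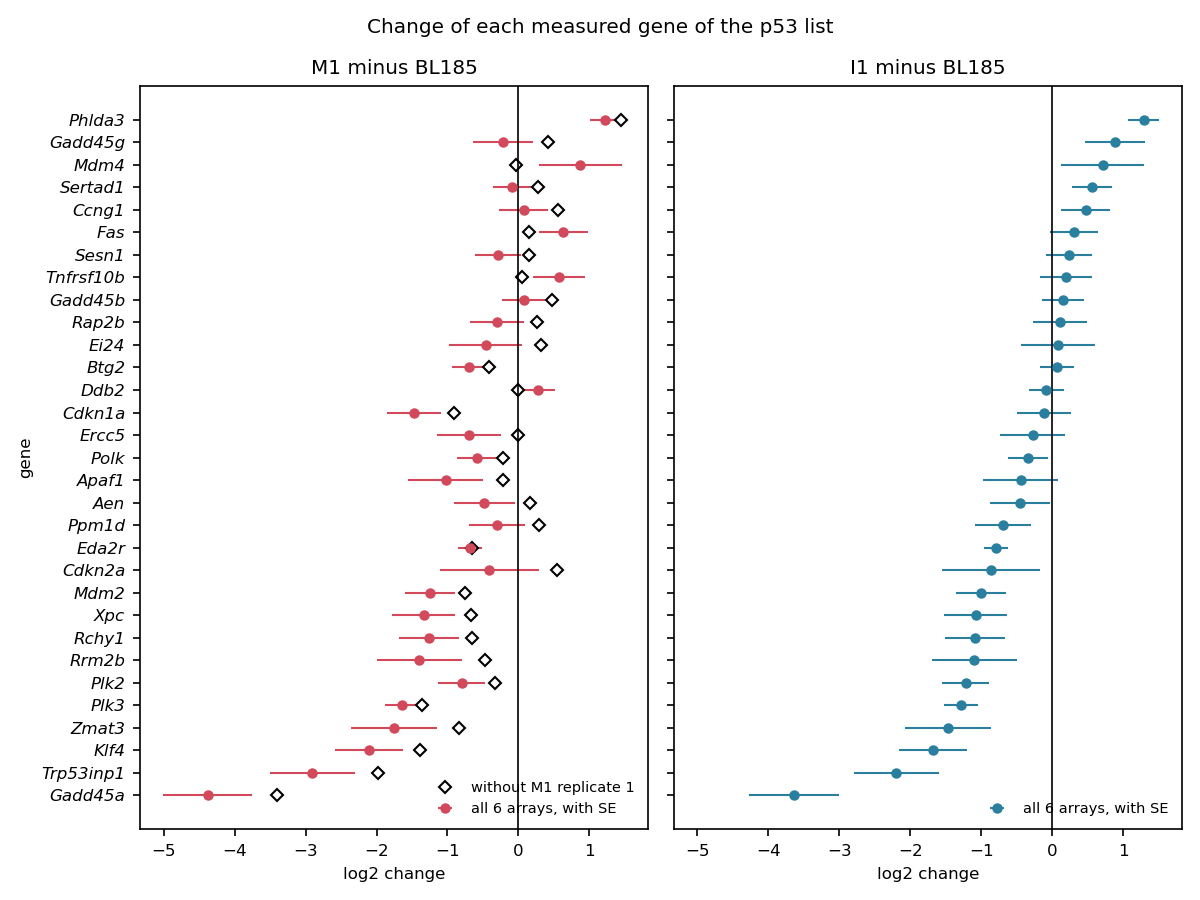
Log2 change from BL185 (horizontal axis) of the 31 measured genes in M1 (left) and I1 (right), with SE bars from the fit to all 6 arrays, and open diamonds for M1 without replicate 1. Gadd45a, Trp53inp1 and Klf4 are lowest in both panels and Phlda3 highest, while Cdkn1a is at −1.47 on the left and −0.11 on the right.

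Among the apoptosis and stress effectors, Trp53inp1, which promotes p53-dependent death and autophagy, read 12.08 and 11.95 in the parent, 8.18 and 10.04 in M1 and 9.79 and 9.85 in I1. Every selected-line array was lower than both parent arrays, and the changes were −2.91 ± 0.60 in M1 (−1.98 without replicate 1) and −2.19 ± 0.60 in I1, with limma adjusted p-values of 0.118 and 0.240. A second probe set, at 7.97 and 8.12 in BL185 and thus near background, gave −0.45 and −0.55. Zmat3, a p53-induced RNA-binding zinc finger protein, read 10.38 and 10.21 in the parent, 7.62 and 9.46 in M1 and 8.64 and 9.02 in I1. M1 replicate 1 again lay below that array's median, and the changes were −1.75 ± 0.60 in M1 (−0.83 without replicate 1) and −1.46 ± 0.60 in I1, with limma adjusted p-values of 0.282 and 0.452.

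Phlda3 ran the other way. It read 10.86 and 10.72 in the parent, 11.80 and 12.23 in M1 and 12.16 and 12.01 in I1. All 4 arrays of the selected lines lay above both parent arrays, and the changes were 1.23 ± 0.22 in M1 (1.44 without replicate 1) and 1.29 ± 0.22 in I1, with limma adjusted p-values of 0.0878 and 0.0996. Eda2r, a receptor of the TNF receptor family, differed by −0.68 ± 0.17 in M1 (−0.66 without replicate 1) and −0.79 ± 0.17 in I1 without overlap of arrays, but its values of 6.67 to 7.58 lay below every array median. The death receptors Fas, at 6.65 to 7.82, and Tnfrsf10b, at 7.85 to 8.94, were likewise near background, with changes from 0.20 to 0.63 (0.15 and 0.053 in M1 without replicate 1). Apaf1, the apoptosome scaffold, differed by −1.03 ± 0.52 in M1 (−0.22 without replicate 1) and −0.45 ± 0.52 in I1. The exonuclease gene Aen, the endoplasmic reticulum protein gene Ei24 and the sestrin gene Sesn1 had changes between −0.48 and 0.24, and in M1 all 3 turned from negative to positive without replicate 1 (0.16, 0.32 and 0.15). Dimmer probe sets of Sesn1 and Aen varied. For Sesn1, 2 gave −0.88 and −0.83 in M1 and −0.10 and −0.71 in I1, and the dimmest gave 0.13 in M1 and 0.08 in I1. For Aen, 1 gave −0.74 in M1 and −0.84 in I1, another −0.28 and −0.51, and the dimmest −0.07 and −0.18.

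The 5 repair genes had negative changes in I1, 4 of them without overlap of arrays, beside 33.5% of all genes and 54.4% of those of like signal, and in M1 4 had a negative change. Rrm2b, the p53-induced subunit of ribonucleotide reductase, read 10.80 and 10.90 in the parent, 8.53 and 10.38 in M1 and 9.60 and 9.91 in I1. Its changes were −1.40 ± 0.60 in M1 (−0.47 without replicate 1) and −1.10 ± 0.60 in I1, with limma adjusted p-values of 0.355 and 0.588, and its next probe set gave −1.54 and −1.85. Xpc, which recognises helix-distorting lesions in nucleotide excision repair, read 10.50 and 10.47 in the parent, 8.48 and 9.82 in M1 and 9.42 and 9.39 in I1. The Xpc changes were −1.34 ± 0.44 in M1 (−0.66 without replicate 1) and −1.08 ± 0.44 in I1, with limma adjusted p-values of 0.268 and 0.450. Polk, a translesion polymerase, differed by −0.59 ± 0.28 in M1 (−0.21 without replicate 1) and −0.34 ± 0.28 in I1, and the excision endonuclease Ercc5 by −0.70 ± 0.46 (−0.011) and −0.27 ± 0.46. The damage sensor Ddb2, which lay at 8.07 to 8.78, differed by 0.27 ± 0.25 in M1, a difference that vanished without replicate 1, and by −0.08 ± 0.25 in I1.

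As a group, the p53 genes had a median change over the 6 arrays nearer to that of genes of like brightness than to that of all genes. It lay below both in each line. The median change of the 31 genes was −0.59 in M1 and −0.34 in I1, beside 0.07 and 0.06 over all genes tested, but −0.43 and −0.21 over the 4533 genes in the same range of signal. Without M1 replicate 1 the M1 median was −0.03, as it was for those 4533 genes. The p53 genes with no overlap of arrays and a lower signal made up 48.4% in M1 and 58.1% in I1, beside 43.8% and 54.4% in that range. Set against the 500 genes nearest to each in mean signal, 8 of the 31 lay in the lowest 10% in M1 and 9 in I1, 3 lay in the highest 10% in each, and the median difference from these neighbours was −0.24 in both. Among the 500 genes nearest in mean signal, 2 had a lower M1 change and 1 a lower I1 change than Gadd45a, and 3 and 5 were lower than Trp53inp1. For Klf4 these numbers were 11 and 6, for Plk3 7 and 16, for Zmat3 19 and 20, for Eda2r 8 and 7, for Rchy1 48 and 34, for Mdm2 64 and 44 and for Plk2 175 and 30, whereas 14 and 13 of 500 had a higher change than Phlda3. Cdkn1a had 22 of 500 below it in M1 and 272 in I1. These ranks describe the arrays and carry no test, and the comparisons of M1 and I1 share the BL185 arrays.

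**Figure D4:**
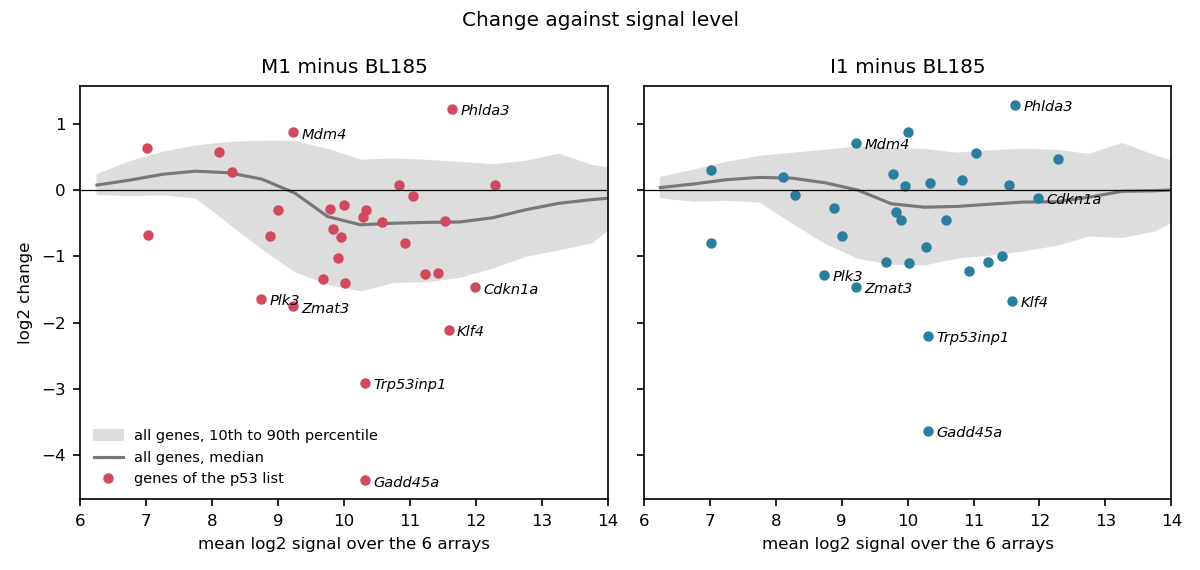
Log2 change from BL185 (vertical axis) against mean log2 signal over the 6 arrays (horizontal axis) for the 31 genes, with the median and the 10th to 90th percentile of all genes in signal bins in grey. Most of the genes lie inside the grey band, whose median falls below 0 at middle signals, whereas Gadd45a, Trp53inp1, Klf4, Plk3, Zmat3 and Eda2r lie below it and Phlda3 and Mdm4 above it in both panels, with Cdkn1a below and Fas above it in M1 alone and Mdm2, Rchy1 and Plk2 below and Gadd45g above it in I1 alone.

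Other genes of the pathway were taken from lists of named genes. Of 27 further p53 targets, 0 passed the test in either line, with a median change of −0.30 in M1 and −0.18 in I1. The apoptotic BH3-only gene Pmaip1 was the lowest without overlap of arrays in both, at −1.68 ± 0.24 in M1 (−1.42 without replicate 1; limma adjusted p = 0.0609) and −1.46 ± 0.24 in I1 (0.0996), and its relative Bbc3 followed in I1 at −1.05 ± 0.18. Thbs1, for the matrix protein thrombospondin, was highest on this measure in M1 (1.44 ± 0.41, and 2.03 without replicate 1) and Tnfaip8, an apoptosis regulator, highest in I1 (2.05 ± 0.60). Of 23 DNA damage signalling genes and 16 p53 family members, cofactors and modifiers, 0 passed in either line. In the first of these lists the replication fork genes Timeless (1.45 ± 0.38 in M1 and 1.28 ± 0.38 in I1) and Clspn (1.15 ± 0.54 and 0.65 ± 0.54) were highest, and the checkpoint clamp gene Hus1 was lowest in I1 (−1.39 ± 0.64, and −1.13 ± 0.64 in M1, where it was −0.14 without replicate 1). The clamp loader gene Rad17 differed by −1.28 ± 0.58 in M1 (−0.41 without replicate 1) and the kinase gene Atm by −1.12 ± 0.57 in I1. In the second, the acetyltransferase gene Ep300 (−1.33 ± 0.54) and the deacetylase gene Sirt1 (−1.41 ± 0.40) were lowest in I1. Highest there without overlap were Trp73 (0.71 ± 0.50) and Ppp1r13b (0.54 ± 0.37). Of these 16 genes, 8 had a positive and 8 a negative change in I1, with a median of −0.05.

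The 18 measured cell cycle genes listed as repressed by p53 through Cdkn1a and the DREAM complex had higher signals in both selected lines. All 18 had a positive change in both, with medians of 1.88 in M1 and 1.84 in I1. Among all 18193 genes, 10099 had a positive change in M1 and 10305 in I1. Cdkn1a differed by −1.47 in M1 and −0.11 in I1, and a link of these genes to p53 was not tested. Of the 18, 5 passed limma's test as higher in M1 and 3 in I1, where 0.275% and 0.192% of all genes passed as higher. They were Birc5 (2.92 ± 0.26 in M1 and 2.69 ± 0.26 in I1), Cdc20 (2.06 ± 0.19 and 2.16 ± 0.19), Mcm5 (2.65 ± 0.26 and 2.25 ± 0.26) and, in M1, Mki67 (3.37 ± 0.34) and Ccna2 (2.64 ± 0.28), with limma adjusted p-values from 0.0235 to 0.0487. Without M1 replicate 1 the median change of the 18 in M1 was 2.31. None of the 18 passed in either line with the replicate block, after median centring or with an array of BL185 or I1 left out, nor in M1 with the arrays of M1 and BL185 alone.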

How the data were processed

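Total RNA (Trizol) was amplified from the 3′ end and measured on 6 mouse arrays, per the labels' protocols. The deposited values are log2 signals, a scale read from their range of 5.80 to 15.43. RMA and the affy package are named in the submitters' processing notes; their versions and settings were not given in the sources used here. Of 45101 probe sets, 34945 named 1 gene, 932 several and 9160 others none, besides 64 controls; 34741 matched a RefSeq gene (GRCm38.p6) by Entrez identifier and 0 symbols changed. Unused sample columns numbered 0. Each of the 18193 genes was represented by its brightest probe set. Groups came from sample titles.

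Line means were fitted with limma 3.58.1 (R 4.3.3) over the 6 arrays together, with 3 residual and 2.27 prior degrees of freedom and Benjamini-Hochberg adjustment over all genes within a contrast. Errors are SEs of this fit; because the spread is pooled, they understate the spread of M1 and overstate that of BL185 and I1. The procedure was tested on simulated data with known changes. The members and lists were chosen with earlier results of these data known. Genes given on every array were those called, those whose arrays did not overlap with a change of at least 1 with and without M1 replicate 1, and Cdkn1a, Mdm2 and Cdkn2a; from the other lists, called genes or the 2 largest changes per direction without overlap, of which some are given. Of the marker lists, leukocyte genes lay at medians of 8.29 to 9.39, stellate and fibroblast genes at 7.50 to 8.41, endothelial genes at 7.00 to 7.70, hepatocyte genes at 8.42 to 9.89 and bile duct genes at 9.13 to 11.19 on the 6 arrays.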

Additional observations from a re-analysis of the deposited data

How the results depend on the processing

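Depth has no counterpart here: signals near the array medians of 7.87 to 8.11 cannot be told from background, and 2 arrays per line limit every value. Of 624 changes of the 13 genes under an alternative, 503 kept their side of the threshold, 118 became called and 3 turned sign while called; counting uncalled values too, 22 of the 624 had the other sign. The 3 were, without M1 replicate 1, I1 minus M1 of −0.63 for Zmat3, −0.62 for Rrm2b and −0.41 for Xpc (1.21, 1.22 and 0.93 without M1 replicate 2). The cause was not tested. Gadd45a was called in 8 of 16 alternatives in M1 and in 5 in I1, and Phlda3 in 4 and 6.

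For M1, the genes called were 160 (31.2% higher) as reported, 338 with the mean of probe sets, 1831 (46.3% higher) once cyclic loess was applied, 1176 (53.8%) under quantile normalization, 57 (8.77%) under median centring, which moved the median of all genes from 0.07 to −0.06, 312 with array weights, 38 with the replicate block and 0 with the arrays of the lines compared alone. The p53 genes called in M1 were 0 as reported, 1 with a minimum mean of 8, 2 with the mean of probe sets, 9 with cyclic loess, 7 with quantiles equalised, 1 with trend and 3 with array weights. For I1, the genes called were 93 (37.6% higher) as reported, 1544 (49.5%) with cyclic loess, 981 (62.0%) with quantile normalization, 23 (8.70%) with median centring, 8551 with array weights, 1 with the replicate block and 8481 with the arrays of I1 and BL185 alone. The p53 genes called in I1 were 12, 6, 0, 22, 0 and 22 under these settings, and their median change was −0.23, −0.11 and −0.39 under the first 3. In M1 that median was −0.21, −0.28 and −0.71, against −0.59 as reported. Between I1 and M1, where limma called 0 genes as reported (409 at an unadjusted p under 0.05), 1 was called with a minimum mean of 8, 51 with cyclic loess, 6 with quantile normalization and 2 with array weights.

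Leaving out each array in turn gave 0 to 12879 genes and 0 to 30 p53 genes called in M1, 0 to 8481 and 0 to 22 in I1, and 0 to 10365 and 0 to 26 between them, with 0 when a BL185 or I1 array was left out. The median of the p53 genes ranged from −1.12 to −0.028 (M1 replicate 1 left out) in M1, −0.37 to −0.30 in I1 and −0.22 to 0.88 in I1 minus M1. Without M1 replicate 1 the last reversed to −0.22, and 4369, 8481 and 3746 genes were called. No p53 gene was called with the replicate block or without it, and the block cut the number of all genes called in both lines, as given above. Whether equal replicate numbers mark a shared batch is not stated. Deviations of same-numbered arrays correlated at −0.13 for BL185 and M1, 0.16 for BL185 and I1 and 0.37 for M1 and I1.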
